A study of Mus musculus with 24 samples.

Results

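A set of 10 genes of the hypoxia response that do not belong to glycolysis were described in cultured cells of the mouse embryo. They were Mgarp, Ndrg1, Bnip3, Bnip3l, Ankrd37, Kdm3a, Ero1l, Tmem45a, Stc2 and Adm. They were chosen by their lower signal under fluid flow on these same arrays, so the comparison of flow with static culture is given below as a description, without a test. A gene was represented by its brightest probe among the probes detected above background, matched by the platform's symbol or a synonym. Of the 10 genes, 8 had such a probe, among 12226 genes measured in all. Bnip3 and Ero1l did not, so a lower signal under flow is not shown for them here.

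The cells came from C57BL/6J embryos at embryonic day 10.5. Their source was the AGM (aorta, gonad and mesonephros), a tissue beside the main artery of the embryo where blood stem cells arise. They were dissociated, seeded in microfluidic channels and kept for 6 h or 36 h either in nearly still medium at 0.0001 dyne per cm2 (static) or under 5 dyne per cm2 of wall shear stress (WSS), with vehicle or with 10 uM indomethacin, an inhibitor of the cyclooxygenases that make prostaglandins. These 2 flow states, 2 drug states and 2 times gave 8 groups: static vehicle, static indomethacin, WSS vehicle and WSS indomethacin at 6 h, and the same at 36 h. Each group had 3 samples, each of 6 pooled channels and each on 1 Illumina bead array, 24 arrays in all. The labels do not say that the 3 samples came from separate cultures or embryos, so the spread behind each p-value is that of these samples and can be technical.

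Cells answer low oxygen largely through the hypoxia-inducible factors (HIFs), transcription factors whose alpha subunits are hydroxylated by oxygen-dependent enzymes and then degraded through the von Hippel-Lindau protein. When oxygen is scarce the alpha subunit is stable, pairs with Arnt and binds short DNA elements near its targets. The targets include the enzymes of glycolysis, and also genes for the turnover of mitochondria, for histone demethylation, for protein folding and for secreted signals, to which the genes described here belong. The arrays measured RNA and neither oxygen nor HIF protein.

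The promoters of 4 of the genes are shown because they differ in which core letters of the HIF element they hold. Each is the RefSeq window of 300 bases, from 250 before to 50 after the start of the gene, in assembly GRCm38.p6, written 5′ to 3′ on the strand of the gene. Capitals mark ACGTG or GCGTG, read on either strand, so that some of the marked letters are the reverse complement. The windows are those of Mgarp at chr3:51396498-51396797 (minus strand), Ankrd37 at chr8:45999801-46000100 (minus strand), Tmem45a at chr16:56886114-56886413 (minus strand) and Adm at chr7:110627407-110627706 (plus strand).
Mgarp: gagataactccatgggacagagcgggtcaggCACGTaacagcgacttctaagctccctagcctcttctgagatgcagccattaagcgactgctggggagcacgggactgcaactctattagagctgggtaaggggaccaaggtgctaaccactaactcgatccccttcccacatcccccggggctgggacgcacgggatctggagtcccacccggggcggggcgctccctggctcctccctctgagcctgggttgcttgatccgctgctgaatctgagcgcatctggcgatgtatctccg
Ankrd37: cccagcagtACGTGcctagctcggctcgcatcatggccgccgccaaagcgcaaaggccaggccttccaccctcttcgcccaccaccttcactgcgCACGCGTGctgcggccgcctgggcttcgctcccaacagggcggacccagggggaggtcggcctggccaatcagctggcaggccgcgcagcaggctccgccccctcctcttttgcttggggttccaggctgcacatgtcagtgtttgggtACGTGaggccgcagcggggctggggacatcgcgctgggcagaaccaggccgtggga
Tmem45a: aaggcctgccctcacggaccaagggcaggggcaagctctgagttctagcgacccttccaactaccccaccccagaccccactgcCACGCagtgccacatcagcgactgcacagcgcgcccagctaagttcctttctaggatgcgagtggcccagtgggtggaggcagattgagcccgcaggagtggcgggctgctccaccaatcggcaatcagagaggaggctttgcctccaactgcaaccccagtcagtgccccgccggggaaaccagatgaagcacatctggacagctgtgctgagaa
Adm: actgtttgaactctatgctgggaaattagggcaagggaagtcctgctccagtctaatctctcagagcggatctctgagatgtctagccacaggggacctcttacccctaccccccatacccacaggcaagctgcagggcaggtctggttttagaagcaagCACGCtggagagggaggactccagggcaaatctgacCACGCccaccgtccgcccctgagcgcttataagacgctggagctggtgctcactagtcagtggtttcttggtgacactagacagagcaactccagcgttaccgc

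Mgarp held 1 match, an ACGTG on the opposite strand that began 219 bases before the start. Ankrd37 held 4 matches, ACGTG at 241 and at 6 bases before the start and an overlapping pair of GCGTG matches at 155 and 152 bases. Tmem45a held 1 GCGTG at 166 bases, and Adm held 2, at 90 and 54 bases, all on the opposite strand. RefSeq windows were found for 8 of the 10 genes, in 10 windows because Kdm3a has 3, and there were none for Ndrg1 and Bnip3l. Of the 10 windows, 8 held a match, and each of the 8 genes had at least 1, with ACGTG in 4 genes and GCGTG in 7. Over all 32851 windows of this length, 43.8% held either motif, 19.6% held ACGTG and 32.4% held GCGTG. The ACGTG motif overlaps its own complement where it stands beside a further C, as in the window of Bnip3. The members' windows had a GC content of 49 to 80.3%, against a median of 52.7% over all windows, and base composition alters how often such short motifs occur. A match is a description of letters and not a binding site.

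Between 18681 and 22156 of 45281 probes were detected per array. Precision is limited by how many arrays there were. Across genes, arrays correlated at 0.98 to 0.993 within groups and 0.928 to 0.992 between groups, and no 2 arrays were identical. The mean signal before normalization moved with flow at 6 h, from 370 to 454.7 in static vehicle against 542.9 to 610.4 in WSS vehicle. At 36 h in vehicle it was 445.5 to 486.7 in static and 526.9 to 607.2 in WSS. Its part in the results was not tested. As a check of the labelled tissue, 10 of 12 endothelial markers (not Tie1 and Erg) and 7 of 9 blood progenitor markers (not Lyl1 and Spi1) were detected. Of 9 urogenital and epithelial markers with a probe 5 were, and Pax2, Gata4, Nr5a1 and Epcam were not detected. In such mixed samples, fewer cells of a type and less RNA per cell cannot be told apart.

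The array of WSS vehicle at 36 h numbered 2 stood apart from the other 2 of its group. It was above both of them in 8 of 8 genes described here, by a median of 1.23 on the log2 scale over their mean. The same held for 21 of 35 other hypoxia targets (60%) and for 4181 of all 12226 genes (34.2%). Its excess ran from 0.43 for Adm to 2.65 for Mgarp. It still lay below the mean of the static vehicle arrays of 36 h for each of the 8 genes, by 0.45 for Kdm3a to 2.29 for Mgarp. Whether it holds mixed or mislabelled RNA was not tested, so each WSS vehicle value of 36 h is that of the arrays as labelled. For the 8 genes, called values, counts and flow differences that it moves are given with and without it. The same is done for counts of the other hypoxia targets between flow states and for flow by time. Values of single genes outside the 8, of cell type markers and of the further lists are given only with it.

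Levels below are log2 of the normalized probe signal, given for arrays 1, 2 and 3 in that order, and differences are log2 differences with their standard errors from 1 limma model over all 24 arrays (n = 3 per group). Because 16 was added to each signal before log2, differences of dim probes are understated. Levels of different probes are not compared with each other.

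The mitochondrial genes come first. Mgarp encodes a protein of the mitochondrial membrane linked to the transport of mitochondria along microtubules. In static vehicle culture Mgarp had levels of 10.18, 9.95 and 10.3 at 6 h and 10.35, 10.33 and 10.3 at 36 h. Under WSS with vehicle it had 6.36, 5.78 and 6.7 at 6 h and 5.54, 8.03 and 5.23 at 36 h. All static arrays were high and close together, all WSS arrays were low, and only the array of 8.03 stood between. The difference was -3.86 ± 0.43 at 6 h, a 14.6-fold lower signal, and -4.06 ± 0.43 at 36 h, or -4.94 ± 0.23 without that array. With indomethacin the static arrays had 10.14, 9.92 and 9.76 at 6 h and 10.51, 9.81 and 10.17 at 36 h. The WSS arrays with indomethacin had 6.95, 6.38 and 6.65 at 6 h and 5.68, 5.59 and 5.36 at 36 h. The drug arrays thus fell into the same high and low sets, with differences of -3.28 at 6 h and -4.62 at 36 h. As the WSS signals of 36 h were near background, the latter ran from -5.2 to -3.54 under other processing. In order of level, the 4 static groups of Mgarp overlapped from one to the next, as did the 4 WSS groups, and no array of one set reached the other.

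Bnip3l (also called Nix) encodes a receptor of the outer mitochondrial membrane that marks mitochondria for autophagy, and it clears them from maturing red cells. Static vehicle arrays had Bnip3l levels of 12.88, 12.59 and 12.66 at 6 h and 12.2, 12.16 and 12.09 at 36 h. WSS vehicle arrays had 11.22, 11.01 and 11.09 at 6 h and 11.12, 11.62 and 11.14 at 36 h. The static level was lower at the later time while the WSS level stayed near 11.1 on all arrays but array 2 of 36 h. The difference between flow states was -1.60 ± 0.15 at 6 h and -0.85 ± 0.15 at 36 h, or -1.01 ± 0.16 without that array. With indomethacin, static arrays ranged from 12.29 to 12.73 at 6 h and from 11.88 to 12.47 at 36 h, and WSS arrays from 11.07 to 11.24 and from 11.12 to 11.18. The flow differences there were -1.33 and -1.0, and static and WSS arrays did not overlap. Bnip3, its close relative with the same role, had 1 probe, which was detected on 2 of 24 arrays and in no group on all 3, so no level or difference is given for it.

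Kdm3a encodes a demethylase that removes methyl groups from lysine 9 of histone H3. Its levels in static vehicle were 11.6, 11.65 and 11.43 at 6 h and 10.77, 10.48 and 10.44 at 36 h. In WSS vehicle they were 10.13, 9.94 and 10.09 at 6 h and 9.55, 10.11 and 9.42 at 36 h. The static arrays of 36 h were below those of 6 h and lay not far above the WSS arrays of 6 h, and the WSS vehicle arrays of the 2 times overlapped. The flow difference of Kdm3a was -1.51 ± 0.17 at 6 h and -0.87 ± 0.17 at 36 h, and -1.08 ± 0.17 without WSS array 2. With indomethacin it was -1.2 at 6 h and -1.0 at 36 h, with static arrays from 11.22 to 11.47 and 10.36 to 11.06 and WSS arrays from 9.99 to 10.25 and 9.58 to 9.81. The other 2 detected probes of Kdm3a had flow differences in vehicle of -1.39 and -1.42 at 6 h and of -0.81 and -1.05 at 36 h.

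Ndrg1 encodes a cytoplasmic protein induced by many stresses. It had levels of 9.0, 9.09 and 9.29 in static vehicle at 6 h and of 9.49, 9.62 and 9.18 at 36 h. WSS vehicle arrays had 6.71, 6.41 and 6.1 at 6 h and 6.8, 8.43 and 7.01 at 36 h. Static and WSS arrays of Ndrg1 did not overlap, and array 2 of 36 h came closest to the static ones. The difference was -2.72 ± 0.31 at 6 h, a 6.59-fold lower signal, and -2.02 ± 0.31 at 36 h, or -2.53 ± 0.25 without that array. In indomethacin it was -2.33 and -2.03. A second detected probe of Ndrg1 gave -2.04 and -1.70 in vehicle.

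Ankrd37 encodes a small protein of ankyrin repeats whose function is poorly known. Static vehicle arrays had 10.03, 9.93 and 10.35 at 6 h and 10.05, 9.84 and 9.65 at 36 h. WSS vehicle arrays had 7.9, 7.52 and 7.85 at 6 h and 6.44, 8.49 and 7.33 at 36 h. The WSS arrays of 36 h were the most scattered of any group for this gene, with an SD of 1.03 against 0.20 in the static arrays beside them. Differences of Ankrd37 were -2.34 ± 0.33 at 6 h and -2.42 ± 0.33 at 36 h in vehicle, or -2.96 ± 0.27 at 36 h without array 2. In indomethacin they were -2.12 and -3.19, and the WSS indomethacin arrays of 36 h were close together at 6.82, 6.71 and 6.64.

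Tmem45a encodes a transmembrane protein of little-known function that hypoxia induces in human cancer cells. Static vehicle arrays had Tmem45a levels of 6.89, 6.22 and 6.35 at 6 h and 9.62, 9.36 and 9.31 at 36 h. WSS vehicle arrays had 5.6, 4.88 and 4.95 at 6 h and 6.06, 7.32 and 5.38 at 36 h. By its brightest probe the gene was dim in every group at 6 h and bright only in static culture at 36 h. That probe reached a signal of 899.7 before normalization. Of the other probes of Tmem45a, 1 was detected on 2 arrays, with signals up to 124.7, and 1 on 0 arrays, up to 87.4. The rise in static culture was thus not seen by a further detected probe, and all Tmem45a values here and below rest on the brightest. Why the probes differ was not tested. The brightest probe was detected at 6 h on 1 of 3 WSS vehicle arrays and 2 of 3 WSS indomethacin arrays. In the other 6 groups it was detected on all 3 arrays. The flow difference was therefore read near the background at 6 h, at -1.34 ± 0.36, and was -3.18 ± 0.36 at 36 h, or -3.71 ± 0.31 without array 2. In indomethacin it was -1.66 at 6 h and -3.27 at 36 h.

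The secreted factors were Stc2, a glycoprotein hormone of the stanniocalcin family, and Adm, the precursor of the vasodilator peptide adrenomedullin. Stc2 had levels of 8.87, 8.77 and 9.01 in static vehicle at 6 h and of 9.91, 9.43 and 9.98 at 36 h. In WSS vehicle they were 5.96, 5.89 and 6.29 at 6 h and 7.52, 7.87 and 6.35 at 36 h. WSS arrays were low at 6 h, and at 36 h arrays 1 and 2 of WSS vehicle were higher than array 3, which lay with the WSS indomethacin arrays of 6.28, 6.15 and 6.41. The flow difference of Stc2 was -2.84 ± 0.27 at 6 h and -2.53 ± 0.27 at 36 h in vehicle (-2.84 ± 0.26 at 36 h without WSS array 2), and -2.79 and -3.34 in indomethacin.

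Adm had levels of 9.67, 9.33 and 9.75 in static vehicle at 6 h and of 8.98, 7.07 and 9.71 at 36 h. In WSS vehicle they were 7.59, 7.36 and 7.37 at 6 h and 6.17, 6.78 and 6.54 at 36 h. Static vehicle array 2 of 36 h was low for Adm, below the WSS vehicle arrays of 6 h, yet above the WSS vehicle arrays of its own time. The flow difference was -2.15 ± 0.40 at 6 h and -2.09 ± 0.40 at 36 h, or -2.85 ± 0.27 at 36 h without that static array and -2.23 ± 0.46 without WSS array 2. With indomethacin the static arrays had 9.87, 9.49 and 9.33 at 6 h and 9.03, 8.66 and 9.13 at 36 h, against 7.19, 6.66 and 6.87 and 5.1, 6.1 and 5.72 in WSS. The differences were -2.66 and -3.30. Ero1l (now Ero1a), the oxidase that passes electrons from protein disulfide isomerase to oxygen in the endoplasmic reticulum, had 2 probes that were detected on 0 of 24 arrays, and no value is given for it.

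**Figure D1:**
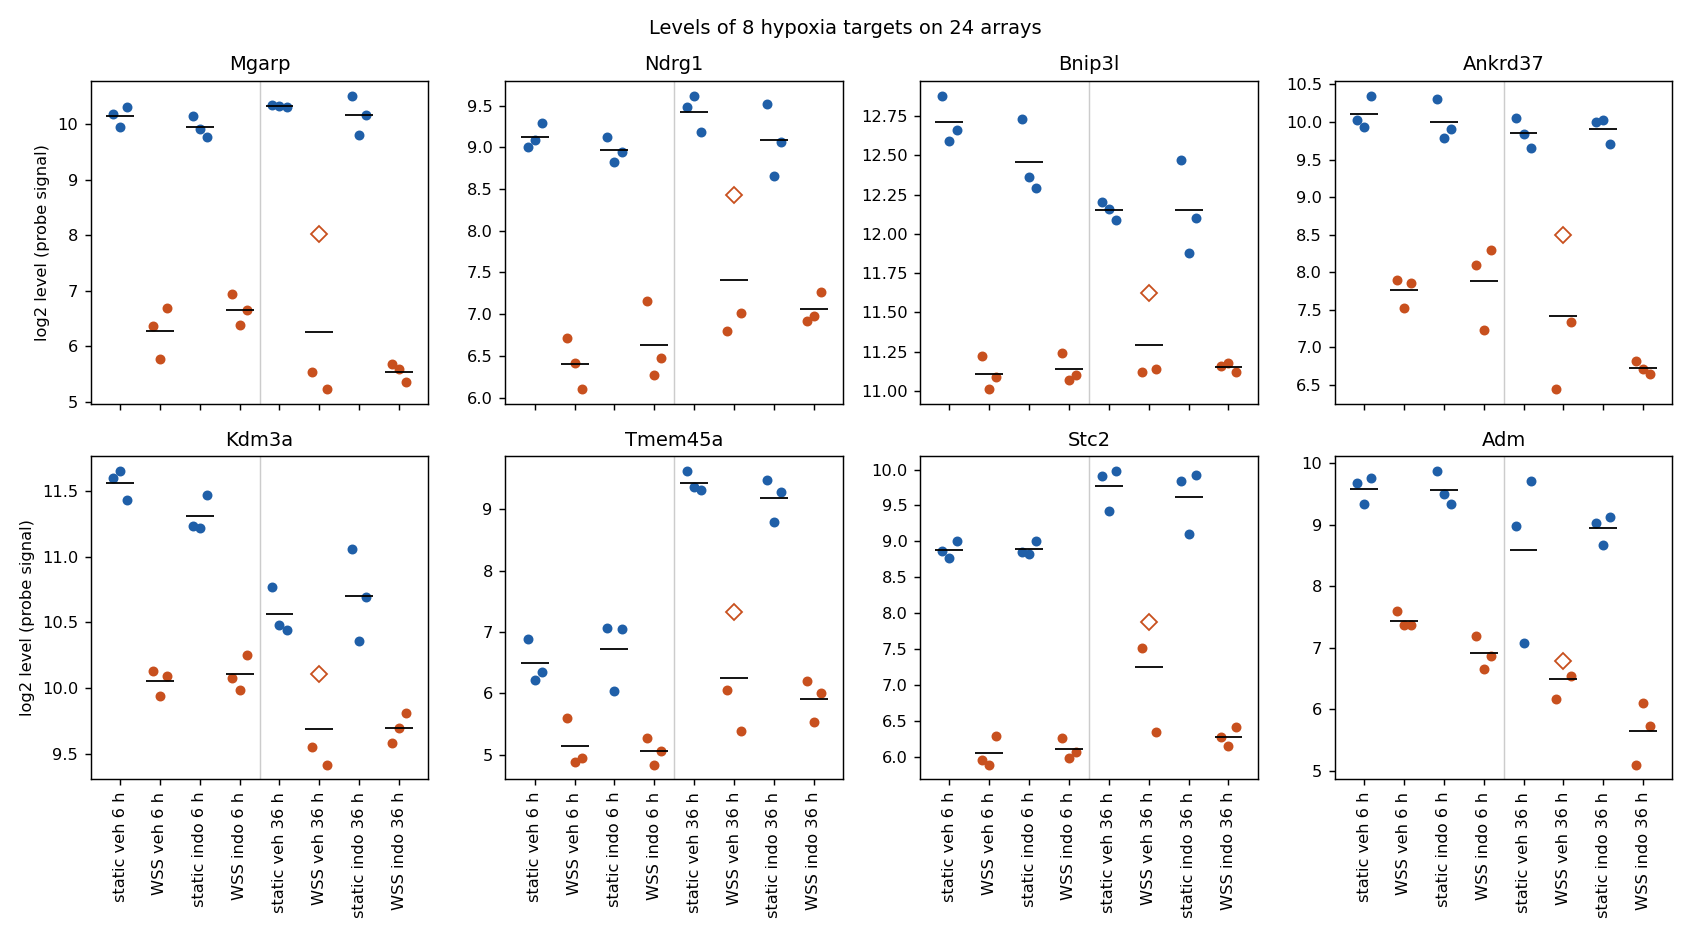
Log2 levels (y axis) of 8 hypoxia targets on 24 arrays in 8 groups (x axis); points are arrays (blue static, orange WSS), black lines are means of 3 arrays, and the open diamond is WSS vehicle array 2 at 36 h. Static arrays lie above WSS arrays of the same drug state and time in all 8 panels, and Tmem45a is high only in static culture at 36 h.

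Over the 8 genes the median flow difference was -2.24 at 6 h in vehicle, -2.23 at 6 h in indomethacin, -2.26 at 36 h in vehicle and -3.23 at 36 h in indomethacin. Over all 12226 genes the medians were 0.01, 0.04, 0.03 and 0.02. At 36 h in vehicle the median of the 8 was -2.68 without array 2. In each of these 4 settings all 3 WSS arrays lay below all 3 static arrays for 8 of 8 genes. That pattern held for 22.6% of all genes in vehicle and 17.2% in indomethacin at 6 h, and for 10.1% and 13.7% at 36 h. As the genes were chosen for lower values under flow, nothing is read from these counts.

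**Figure D2:**
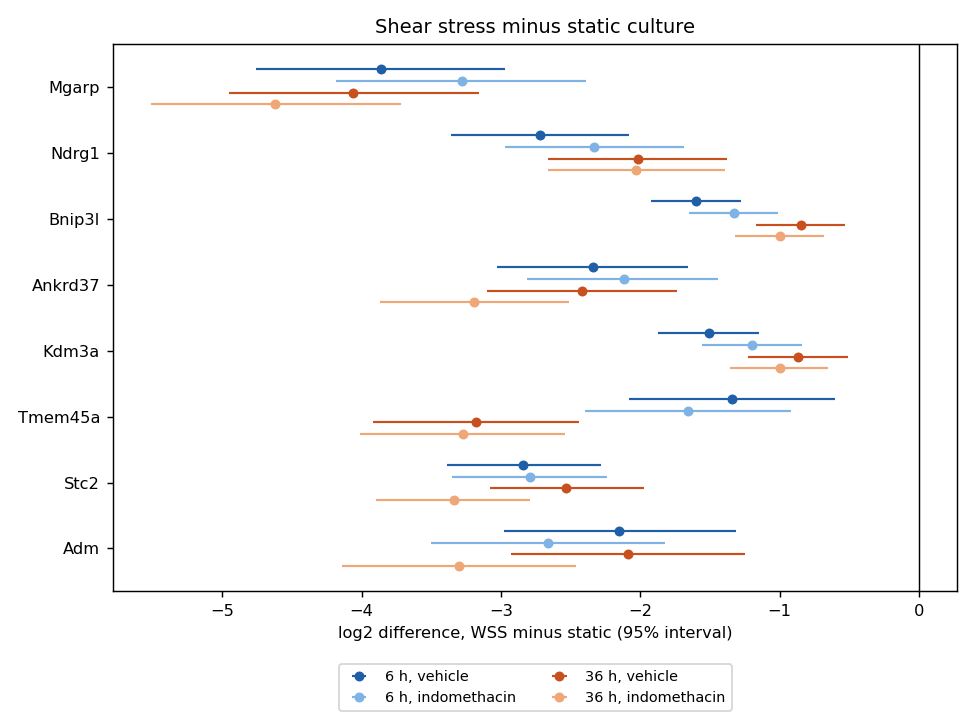
Log2 difference, WSS minus static (x axis), of each of 8 genes (y axis) at 2 times and in 2 drug states; points are limma estimates from 3 arrays against 3 and bars are 95% intervals. Mgarp differs most in all 4 settings, from -3.28 to -4.62, and Tmem45a is -1.34 at 6 h and -3.18 at 36 h in vehicle.

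Whether the flow difference itself changed between 6 h and 36 h was tested by the flow by time interaction, the flow difference at 36 h minus that at 6 h. It joins comparisons that served to choose the genes. How far the choice also bears on the change between them is not known. In limma, with Benjamini-Hochberg adjustment and a threshold of 0.05, the vehicle interaction passed for 2 of 8 genes, against 11.8% of all genes. Tmem45a passed with a more negative flow difference at 36 h, by -1.84 ± 0.50 (adjusted p = 0.022). Its probe was detected on only 1 of the 3 WSS vehicle arrays of 6 h, so a wider difference at 6 h could not have been read, and the test does not show that flow lowered the gene less at 6 h. Bnip3l passed with a less negative one, by 0.75 ± 0.22 (adjusted p = 0.03). The others were Kdm3a at 0.64 ± 0.24 (adjusted p = 0.088), Ndrg1 at 0.70, Stc2 at 0.31, Adm at 0.05, Ankrd37 at -0.08 and Mgarp at -0.20, with 95% intervals of -0.20 to 1.60 for Ndrg1 and -1.46 to 1.07 for Mgarp. Adm was at -0.71 ± 0.36 (adjusted p = 0.2) without static vehicle array 2 of 36 h. Without WSS vehicle array 2 of 36 h, Tmem45a was at -2.37 ± 0.41 (adjusted p = 0.0026), Mgarp passed at -1.08 ± 0.31 (adjusted p = 0.038) and Bnip3l no longer did, at 0.58 ± 0.21 (adjusted p = 0.089), while 7.47% of all genes passed.

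Both calls depended on single arrays. That of Bnip3l was also lost without static vehicle array 1 (adjusted p = 0.07) or 3 (0.052) of 6 h, without WSS vehicle array 2 (0.062) or 3 (0.056) of 6 h, and without static vehicle array 3 of 36 h (0.055). Under median scaling it was at 0.49 (adjusted p = 0.14). That of Tmem45a was lost without static vehicle array 2 (0.054) or 3 (0.052) of 6 h, WSS vehicle array 1 of 6 h (0.065), static vehicle array 1 of 36 h (0.051) or WSS vehicle array 3 of 36 h (0.054), with values from -1.41 to -1.77 in these fits. Kdm3a passed at 0.78 (adjusted p = 0.047) without WSS vehicle array 3 of 36 h. In indomethacin 0 of 8 genes passed in limma, and 2.91% of all genes passed. At an unadjusted p under 0.05 there were 3 of the 8 genes and 2474 of all 12226. Tmem45a was at -1.62 ± 0.50 there (adjusted p = 0.078) and Mgarp at -1.34 ± 0.61 (adjusted p = 0.22).

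Between 6 h and 36 h, the 8 genes went different ways in static culture. In static vehicle 5 of 8 passed, 2 higher and 3 lower at 36 h, against 26% of all genes higher, 25% lower and 51% in either direction, so the share of the 8 that passed was near that of all genes. Tmem45a rose by 2.95 ± 0.36 (adjusted p = 9.5e-07), a 7.71-fold higher signal, and Stc2 rose by 0.89 ± 0.27 (adjusted p = 0.0081). Kdm3a changed by -1.0 ± 0.17 (adjusted p = 6.3e-05) and Bnip3l by -0.56 ± 0.15 (adjusted p = 0.0044), with no overlap between the arrays of the 2 times. The other 2 probes of Kdm3a were at -0.76 and -0.85. Bnip3l was at -0.29 (adjusted p = 0.11) under median scaling. Adm passed at -1.0 ± 0.40 (adjusted p = 0.044), but its arrays overlapped and the value was -0.24 ± 0.27 (adjusted p = 0.49) without static vehicle array 2 of 36 h. Without static vehicle array 1, 2 or 3 of 6 h its adjusted p was 0.096, 0.05 or 0.11.

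Mgarp, Ndrg1 and Ankrd37 did not pass in static vehicle, with differences of 0.18 (95% interval -0.71 to 1.08), 0.30 (-0.34 to 0.94) and -0.26 (-0.94 to 0.42). In static indomethacin 3 of 8 genes passed, against 24.5% of all genes higher, 22.3% lower and 46.9% in either direction. Tmem45a rose by 2.47 ± 0.36 (adjusted p = 1.1e-05), Stc2 rose by 0.73 ± 0.27 (adjusted p = 0.03) and Kdm3a changed by -0.60 ± 0.17 (adjusted p = 0.0067). The call of Stc2 was lost without static indomethacin array 1 or 2 of 6 h (adjusted p = 0.074 and 0.077) or array 1 or 3 of 36 h (0.1 and 0.12). That of Kdm3a was lost without array 2 of 36 h (-0.43, adjusted p = 0.058), and Bnip3l passed without array 1 of 36 h (-0.48, adjusted p = 0.019).

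Under WSS with vehicle, 3 of 8 genes were called higher at 36 h and 0 lower in limma, against 18% and 17.7% of all genes. At an unadjusted p under 0.05, 1 of the 8 was lower, as were 2722 of all 12226 genes. Stc2 rose by 1.2 ± 0.27 (adjusted p = 0.0014), Ndrg1 by 1.0 ± 0.31 (adjusted p = 0.014) and Tmem45a by 1.11 ± 0.36 (adjusted p = 0.019, with overlapping arrays). These counts rested on WSS vehicle array 2 of 36 h. Without it 1 gene was higher, Stc2 at 0.89 ± 0.26 (adjusted p = 0.013), and 3 were lower: Mgarp at -0.90 ± 0.23 (adjusted p = 0.0052), Ankrd37 at -0.87 ± 0.27 (adjusted p = 0.016) and Kdm3a at -0.57 ± 0.17 (adjusted p = 0.013), while 32.3% of all genes passed in either direction against 35.8% with it. Ndrg1 was then at 0.50 (adjusted p = 0.13) and Tmem45a at 0.57 (adjusted p = 0.16). Without WSS vehicle array 3 of 6 h, Ndrg1 was at 0.85 (adjusted p = 0.071) and Tmem45a at 1.01 (adjusted p = 0.067), and without array 2 of 6 h Tmem45a was at 0.98 (adjusted p = 0.076).

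Under WSS with indomethacin, 2 of 8 genes passed, both lower at 36 h, against 16.2% of all genes called lower, 14.6% higher and 30.7% in either direction. Ankrd37 changed by -1.15 ± 0.33 (adjusted p = 0.01) and Adm by -1.27 ± 0.40 (adjusted p = 0.021), and the arrays of the 2 times did not overlap for either. Mgarp at -1.11 ± 0.43 (adjusted p = 0.054) and Kdm3a at -0.41 ± 0.17 (adjusted p = 0.076) did not pass, nor did Tmem45a at 0.85 ± 0.36 (adjusted p = 0.074). Ankrd37 was at -0.94 (adjusted p = 0.062) without WSS indomethacin array 3 of 6 h. Adm was at -1.12 (adjusted p = 0.079) without array 1 of 6 h and at -0.99 (adjusted p = 0.098) without array 1 of 36 h. With no background correction Adm was at -0.72 (adjusted p = 0.074 in limma), and its WSS indomethacin signals of 36 h were near background.

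**Figure D3:**
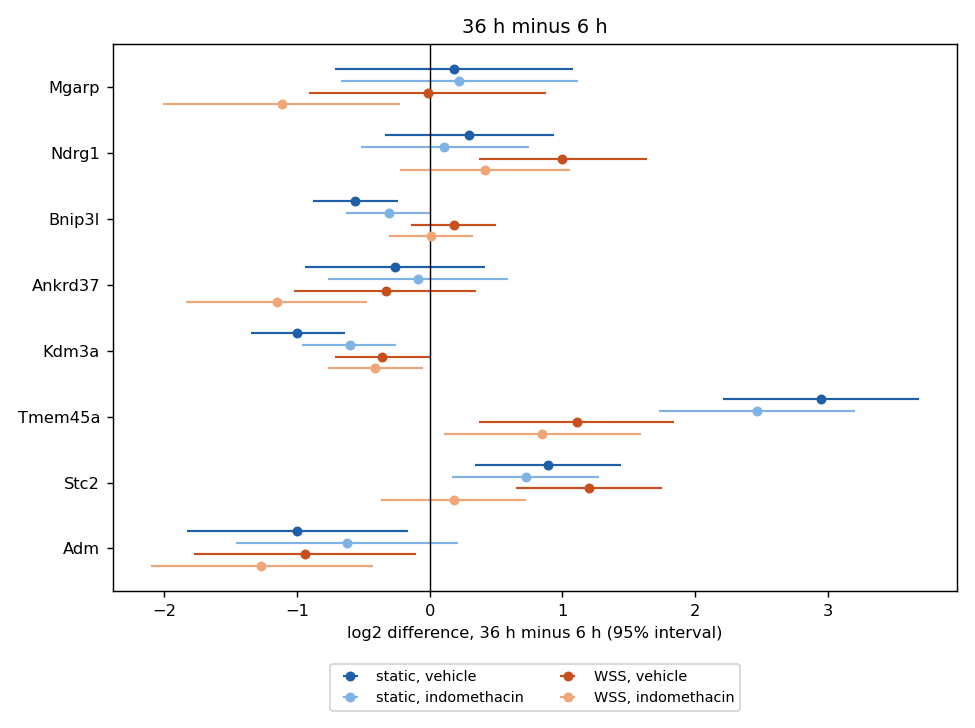
Log2 difference, 36 h minus 6 h (x axis), of each of 8 genes (y axis) in 4 culture states; points are limma estimates from 3 arrays against 3 and bars are 95% intervals. Tmem45a stands to the right in static culture, at 2.95 in vehicle and 2.47 in indomethacin, and Kdm3a is at -1.0 in static vehicle.

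Markers of several cell types also moved with time. In static vehicle 26% of all genes were called higher at 36 h and 25% lower. There 8 of 10 mesenchymal markers were higher, with Lum at 3.05 and Col1a2 at 2.09. Their summed signal went from 42554 to 46881 at 6 h to 43573 to 56050 at 36 h. Of 8 detected erythroid markers 6 were lower, with a summed signal of 65560 to 120095 at 6 h and 13961 to 51199 at 36 h. Macrophage markers were higher in 4 of 8 detected (Ptprc and Mrc1 were not), from a sum of 315 to 349 to one of 468 to 672, and urogenital and epithelial markers lower in 4 of 5, from 2920 to 3930 down to 1146 to 1292. Under WSS with vehicle, 4 of 10 mesenchymal markers were higher and 8 of 8 erythroid markers lower at 36 h. Of all genes 18% were called higher in that comparison and 17.7% lower. Between flow states in vehicle at 36 h, 4.66% of all genes were called higher under WSS and 4.72% lower. There 5 of 8 detected neural and neural crest markers were higher and 1 was lower. Their sums were 2518 to 3360 in static and 5279 to 6737 in WSS. In that comparison 4 of 10 mesenchymal markers were lower, with sums of 43573 to 56050 and 43398 to 51579. Endothelial sums at 36 h were 1732 to 2081 in static vehicle and 1242 to 1934 in WSS vehicle. With indomethacin they were 1759 to 2058 in static and 1253 to 1411 in WSS. Blood progenitor sums at 36 h in vehicle were 722 to 786 in static and 866 to 1050 in WSS. At 6 h in vehicle 0 of 8 neural markers and 0 of 8 erythroid markers passed in limma between flow states (1 neural marker higher and 1 lower, and 0 erythroid markers, at an unadjusted p under 0.05), and 3 of 10 mesenchymal markers were lower. There 3 of 7 detected blood progenitor markers were higher and 1 lower, with sums of 682 to 776 in static and 788 to 915 in WSS. Of 8 macrophage markers 2 were higher, with sums of 315 to 349 and 404 to 693. Of 5 urogenital and epithelial markers 1 was lower, with sums of 2920 to 3930 and 2086 to 2404. Between flow states at 6 h in vehicle, 15.1% of all genes were called higher and 14.3% lower. The erythroid sum also varied within groups, from 9869 to 118463 over the 3 WSS indomethacin arrays of 6 h. The part of these cell types in the values of the 8 genes was not tested.

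Indomethacin was compared with vehicle within each flow state and time. In limma 0 of 8 genes passed in each of the 4 comparisons, and among all genes 0% passed in static and 0% in WSS at 6 h, and 0.0491% and 0.00818% at 36 h. At an unadjusted p under 0.05 there were 0 of the 8 genes in static at 6 h, 0 in static at 36 h, 0 in WSS at 6 h and 3 in WSS at 36 h, and 799, 689, 357 and 698 of all genes. The median difference of the 8 genes was -0.13 in static and 0.06 in WSS at 6 h, and -0.07 and -0.53 at 36 h. In WSS at 36 h the differences ran from 0.00 for Kdm3a to -0.97 ± 0.27 for Stc2 (95% interval -1.52 to -0.41, adjusted p = 0.51). Adm was at -0.86 (-1.69 to -0.02), Mgarp at -0.72 (-1.62 to 0.17) and Ankrd37 at -0.70 (-1.38 to -0.02). Without WSS vehicle array 2 the median was 0.08, with Mgarp at 0.16, Ankrd37 at -0.16, Adm at -0.71 and Stc2 at -0.65. Without WSS vehicle array 3 instead, Stc2 passed at -1.41 (adjusted p = 0.016).

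In static culture the differences with indomethacin lay on both sides of 0. At 6 h they ran from -0.26 for Kdm3a (95% interval -0.61 to 0.10) to 0.23 for Tmem45a (-0.51 to 0.97), and at 36 h from -0.35 for Ndrg1 (-0.99 to 0.29) to 0.35 for Adm (-0.48 to 1.19). The value of Adm was -0.41 ± 0.27 without static vehicle array 2 of 36 h. At 6 h under WSS they ran from -0.53 for Adm (-1.37 to 0.30) to 0.38 for Mgarp (-0.52 to 1.27). Whether indomethacin altered the flow difference was tested by the flow by drug interaction, which also joins comparisons that served to choose the genes. In this interaction 0 of 8 genes and 0% of all genes passed in limma at both times. At an unadjusted p under 0.05 it took 0 of 8 genes and 487 of all genes at 6 h, and 2 of 8 and 511 at 36 h. At 36 h all 8 values were negative, from -0.01 for Ndrg1 to -1.21 ± 0.57 for Adm, with a median of -0.35 (-0.02 over all genes). That shared sign rested on WSS vehicle array 2. Without it the values lay on both sides of 0, from -1.07 for Adm to 0.50 for Ndrg1, with a median of 0.05. Adm was at -0.45 ± 0.36 without static vehicle array 2.

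**Figure D4:**
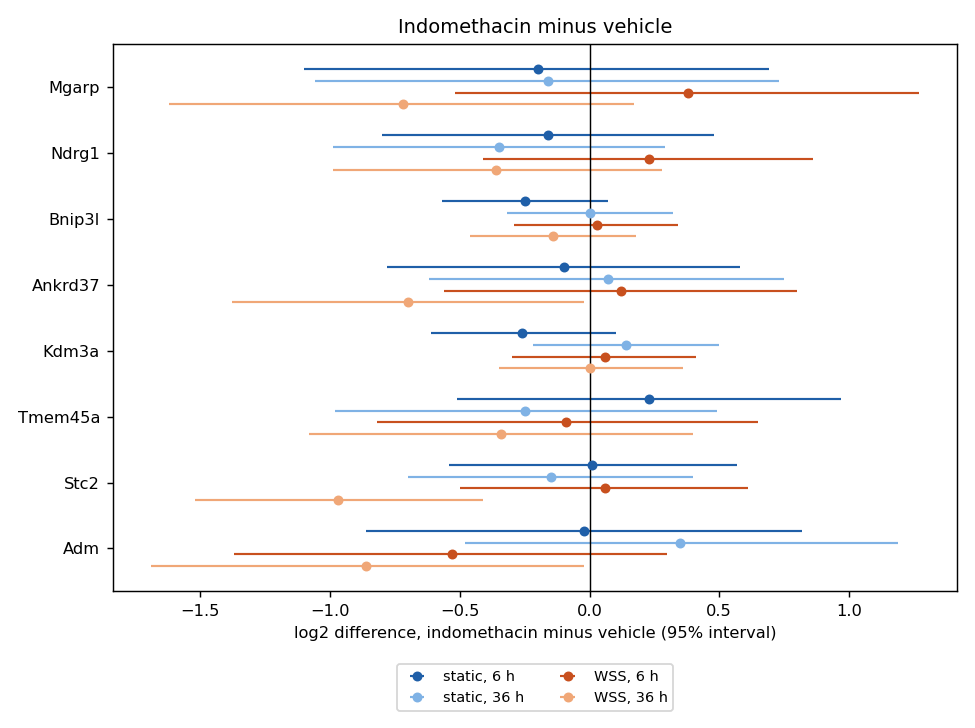
Log2 difference, indomethacin minus vehicle (x axis), of each of 8 genes (y axis) in 2 flow states at 2 times; points are limma estimates from 3 arrays against 3 and bars are 95% intervals. All 32 values lie between -0.97 and 0.38, and all but 3 intervals include 0, before adjustment for the number of genes.

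Other genes of the same response were read from a list of 40 non-glycolytic hypoxia targets, 35 of them measured. The list was chosen with earlier results of these data known. Its counts and p-values under flow are therefore a description and not independent of the choice. Under WSS in vehicle at 6 h 28 were lower and 0 higher in limma, with a median of -1.10, where 14.3% of all genes were called lower and 15.1% higher. The differences were -3.73 ± 0.20 for Car9, the cell surface carbonic anhydrase, -2.84 ± 0.23 for Bhlhe40, a transcriptional repressor, -2.78 ± 0.26 for Egln3, an oxygen-dependent HIF hydroxylase, and -2.52 ± 0.21 for Stc1, the paralogue of Stc2 (limma adjusted p from 1.9e-10 to 3e-07). At 36 h in vehicle 19 of 35 were lower and 0 higher (4.72% of all genes lower and 4.66% higher), with a median of -0.74. Without WSS vehicle array 2 of 36 h, 18 were lower and 0 higher, with a median of -0.86, against 3.76% and 3.51% of all genes. With all arrays Car9 was at -4.10 ± 0.20, Lox, which cross-links collagen, at -3.02 ± 0.36, P4ha1, a collagen prolyl hydroxylase, at -2.66 ± 0.27 and Egln3 at -2.61 ± 0.26. In indomethacin 27 and 25 of the 35 were lower at 6 h and 36 h, and 0 were higher, also at an unadjusted p under 0.05 in all 4 settings (8.34% and 5.78% of all genes lower, 9.45% and 5.05% higher).

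**Figure D5:**
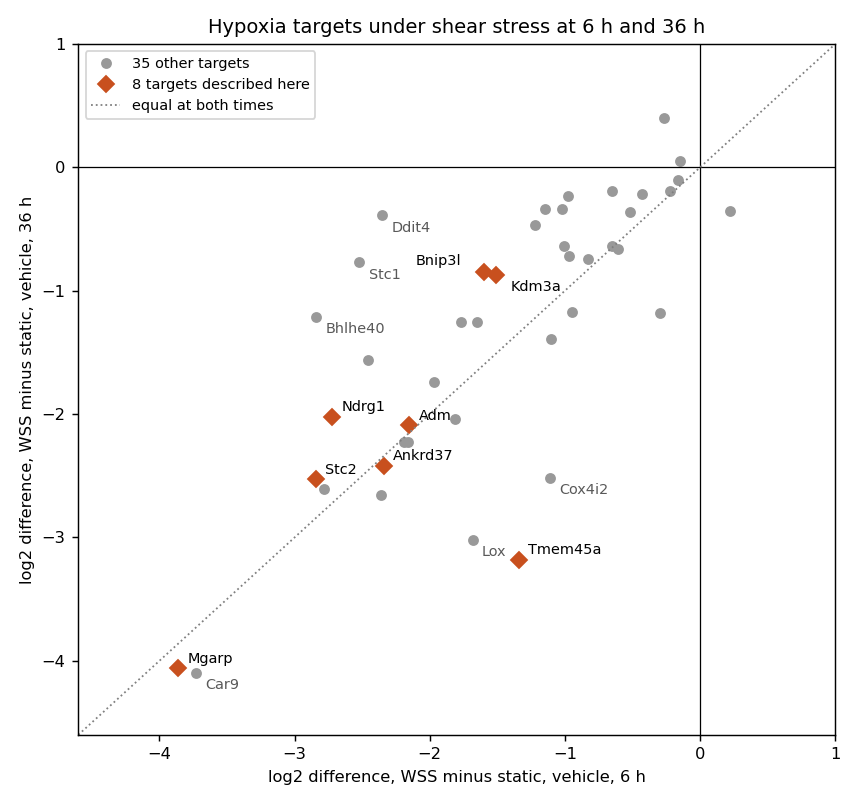
Log2 difference, WSS minus static in vehicle, at 6 h (x axis) and 36 h (y axis) for 8 genes described here (diamonds) and 35 other hypoxia targets (grey); each is a limma estimate from 3 arrays against 3, and the dotted line marks equal values. Tmem45a lies beside Lox and Cox4i2 below the line, and Ddit4, Stc1 and Bhlhe40 lie above it.

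Over time in static vehicle 7 of 35 genes of this list were higher at 36 h and 11 lower, near the 26% and 25% of all genes. Examples were Angptl4, a secreted regulator of lipoprotein lipase, at 2.91 ± 0.26, Lox at 2.79 ± 0.36, Cox4i2, a subunit of cytochrome oxidase, at 1.47 ± 0.17 and Edn1, the vasoconstrictor endothelin, at -1.74 ± 0.51. Tmem45a, at 2.95 in the same comparison, had a value close to those of Angptl4 and Lox. The flow by time interaction in vehicle passed in 8 of 35, 7 of them positive, against 11.8% of all genes. Without WSS vehicle array 2 of 36 h it passed in 4 of 35, 3 positive and 1 negative, against 7.47% of all genes. With all arrays the widest were Ddit4, an inhibitor of mTOR signalling, at 1.96 ± 0.30, Stc1 at 1.76 ± 0.30, Bhlhe40 at 1.63 ± 0.33 and Cox4i2 at -1.41 ± 0.24. Stc2, at 0.31 ± 0.38, did not pass where its paralogue Stc1 did. The difference between the paralogues was not tested.

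Of the HIF factors and oxygen sensors 7 of 8 were measured (not Epas1). The HIF hydroxylases Egln1 and Egln3 were counted among the hypoxia targets above and not here. Egln3 was lower under WSS in vehicle at both times, as given there. In vehicle at 6 h Arnt was lower under WSS at -0.53 ± 0.17 (adjusted p = 0.022), and 0 of the 7 were higher (1 at an unadjusted p under 0.05 in limma). In vehicle 14.3% of all genes were called lower and 15.1% higher at 6 h, and 4.72% and 4.66% at 36 h. Hif1a, the main alpha subunit, was at 0.25 ± 0.18 (adjusted p = 0.31) at 6 h and 0.46 ± 0.18 (adjusted p = 0.12) at 36 h, above 0 but not past the threshold at either time. At 36 h 0 of 7 passed in vehicle in limma (2 higher and 0 lower at an unadjusted p under 0.05), and Vhl alone passed in indomethacin, at -0.44 ± 0.14. Among 9 measured paralogues of the 10 genes, 3 were lower and 2 higher under WSS at 6 h in vehicle, with Stc1 as above, Ndrg2 at -1.82 ± 0.16, Jmjd1c at -0.63 ± 0.23 and Bnip2 at 0.68 ± 0.15 among them. At 36 h Ndrg2 was still lower, at -1.77 ± 0.16, beside Stc1 at -0.77 ± 0.21.

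The partners of the genes in their own processes were read from further lists. Of 22 measured genes of mitophagy and mitochondrial transport, 3 were higher and 3 lower under WSS at 6 h in vehicle, a median of 0.12. These shares were near those of all genes, of which 15.1% were called higher and 14.3% lower. At 36 h in vehicle 4.66% of all genes were called higher and 4.72% lower. Sqstm1, an adaptor of selective autophagy, was at 0.74 ± 0.13, Trak1, which links mitochondria to motor proteins, at -0.68 ± 0.18 and Phb2, a receptor of the inner mitochondrial membrane, at 0.58 ± 0.10. At 36 h 1 of 22 passed, Sqstm1 at 0.43 ± 0.13. Of 10 genes of lysine 9 methylation on histone H3, 2 were higher and 3 lower at 6 h, with the demethylase Kdm4b at -1.15 ± 0.16 and the reader Cbx5 at 0.78 ± 0.18, and 0 of 10 passed in limma at 36 h in vehicle (1 at an unadjusted p under 0.05). Kdm4b is itself among the hypoxia targets listed above.

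Of 16 genes of oxidative folding in the endoplasmic reticulum, 4 were higher and 2 lower under WSS at 6 h in vehicle. Of all genes 15.1% were called higher there and 14.3% lower, and 4.66% and 4.72% at 36 h. At 6 h Pdia6 was at 0.89 ± 0.22 and Gpx7 at 0.69 ± 0.15, both enzymes of disulfide formation. At 36 h 0 of the 16 were higher (0 at an unadjusted p under 0.05 in limma) and 4 lower, with Gpx7 at -0.88 ± 0.15. Of 6 measured genes for the receptor and processing of adrenomedullin (its receptor Calcrl was not detected), Ramp3, a receptor partner, was higher under WSS at 6 h at 0.83 ± 0.22. Mme, a peptidase that degrades peptide hormones, was lower at 36 h at -0.89 ± 0.23. Over time in static vehicle 4 of 6 of these genes were higher, where 26% of all genes were, with Ramp3 at 1.62 ± 0.22, Ramp1 at 1.46 ± 0.21 and Pam, which amidates the peptide, at 0.86 ± 0.24.

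The genes with the pattern most like the mean of the 8 were sought over the 8 group means, by the root mean square of the differences between centred log2 values. The closest were P4ha2 at 0.16, P4ha1 at 0.18, Pygl at 0.20, Egln3 at 0.23 and Rarb at 0.24. P4ha2, P4ha1 and Egln3 are on the list of hypoxia targets, and Pygl and Rarb are not. The 8 group means share their arrays and their 3 replicates, so these values are a description.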

How the data were processed

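RNA of 24 cultured AGM samples was measured on Illumina bead arrays, 1 per sample, and groups and replicate numbers were taken from the sample titles. The deposited signal table holds a linear intensity per probe, per the file headers, neither background-subtracted nor normalized. A detection p-value stands beside each deposited signal, per the file headers. Per the labels' protocols, cRNA was biotinylated with a MessageAmp kit of Ambion. Scanning and export software are not given in the sources used here. Processed intensity values of the authors form another deposited table. Compared with the signals (24 of 24 columns matched best their own array), these are on a linear scale after subtraction of background and quantile normalization, and column medians are 11.6 to 11.7. How its background was subtracted is unknown. It was floored at 16 and used as an alternative.

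In R 4.3.3 with limma 3.58.1, neqc corrected the signals with negative controls that it inferred from the detection p, added an offset of 16, quantile normalized and took log2. Kept were probes with a detection p under 0.05 on every array of at least 1 group of 3 (21251 of 45281 probes). Of all probes 35784 had 1 symbol and 9497 had none. Symbols were updated with a RefSeq gene table of GRCm38.p6 through the Entrez ID (28620) or the accession (2637) and otherwise kept (4527). Probe coordinates are left out, since the build of the arrays is not stated. The brightest probe stood for a gene, which left 12226 genes.

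All arrays entered 1 linear model of group means (lmFit, contrasts, eBayes, 16 residual and 21.4 total degrees of freedom) with 16 contrasts. Tests were 2-sided with Benjamini-Hochberg adjustment over all genes at 0.05, and intervals are 95%. With 3 arrays a side, the smallest exact p is 0.1. The 4 flow contrasts are described without a test for the 8 genes. The genes and the 15 gene lists were chosen with earlier results of these data known. Every member was named, up to 4 genes of each further list by size of change, and the 5 genes most like the members. Marker genes were named after their values were seen. The fit was tested on simulated data. Deviations of same-numbered arrays did not correlate above 0.1 in every pair, so the numbers were not used as pairs. This does not show that same-numbered arrays are unrelated. The alternatives were leaving out each array, fitting only the arrays compared, the replicate number as a block, array weights, robust eBayes with a trend, every detected probe in place of the brightest, a detection p under 0.01, no filter on dim probes, the processed values, median scaling, an offset of 50 and no background correction. Promoter windows are from RefSeq, GRCm38.p6.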

Additional observations from a re-analysis of the deposited data

Results flagged for a closer look

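The flow by time interaction in vehicle passed the limma test for 2 genes. For Tmem45a it was -1.84, from a flow difference of -1.34 at 6 h to one of -3.18 at 36 h, with the probe detected on 1 of 3 WSS vehicle arrays at 6 h, so that background limits the earlier difference. The Tmem45a value rests on 1 probe, as its other probes were detected on all 3 arrays of no group. Its call was lost in the processed values (adjusted p = 0.096 in limma) and with only the arrays compared (0.053). It was also lost in the fits without single arrays given above. For Bnip3l the interaction was 0.75, from -1.60 to -0.85, a call lost under median scaling and in 6 fits without 1 array. In the group of WSS vehicle at 36 h, array 2 was above the other arrays for both genes. Without it the interaction was -2.37 for Tmem45a and 0.58 for Bnip3l, and the latter no longer passed (adjusted p = 0.089 in limma). Its part in the remaining values was not tested.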

How the results depend on the processing

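No called difference of the 8 genes reversed under any alternative. The median flow difference at 36 h in indomethacin, -3.23, was -2.67 at an offset of 50 and -2.40 when no background was corrected, both of which compress dim probes by construction. In static vehicle 5 genes passed over time, and 3 under median scaling. For WSS with vehicle over time, 3 were called higher and 0 lower, against 1 higher and 1 lower with only the arrays compared. In that fit Ndrg1 (adjusted p = 0.072 in limma) and Tmem45a (0.074) were lost, and Adm was called lower at -0.94 (0.0051). For WSS with indomethacin over time, 2 passed, against 1 with no background correction, 4 in the processed values, and 5 with array weights or with only the arrays compared. For flow by time in vehicle 2 passed, against 1 under median scaling, in the processed values and with only the arrays compared. In indomethacin 0 passed, against 1 with no background correction, an offset of 50 or array weights and 2 with only the arrays compared. Leaving out 1 array gave 0 to 1 genes for indomethacin in WSS at 36 h, 1 to 4 for time in WSS vehicle, 1 to 2 for time in WSS indomethacin and 0 to 2 for flow by time in vehicle. The causes were not tested, apart from the arrays named above.

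Correlations of deviations between same-numbered arrays ran from -0.23 to 0.36 with a median of 0.036, over 84 pairs of which 26 were above 0.1. Between different-numbered arrays of different groups the median was -0.024. The mean deviation of the 8 genes was below the group mean for array 2 in 7 of 8 groups. It was above that mean in 6 of 8 groups for array 1 and in 6 of 8 for array 3. With the replicate number as a block the same number of genes passed in each comparison, such as 5 over time in static vehicle and 2 for flow by time.

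Over all genes, 2175 were called for flow at 6 h in indomethacin and 4881 with array weights. With only the arrays compared, 123 against 1147 were called for flow at 36 h in vehicle (31.7% against 49.7% of them higher), 710 against 1325 in indomethacin (35.8% against 46.6%) and 948 against 1437 for flow by time in vehicle. Median scaling gave 40.7% higher calls against 53.9% for flow by time in vehicle and 34.3% against 48.3% in indomethacin, where array weights called 1092 genes against 356. For indomethacin in static culture at 6 h, 95 genes were called with array weights and 0 without. The lowest signals, those of Tmem45a at 6 h under WSS, are limited by background.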
